A study of Mus musculus with 4 samples.

Results

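Open chromatin was described at 10 genes of the TGF-beta and BMP response, namely the receptors Tgfbr1 and Tgfbr2, the SMAD proteins Smad3, Smad6 and Smad7, the corepressors Skil and Tgif1, and the targets Id1, Id2 and Id3. The genes were taken by name, out of 21436 protein-coding genes with a known strand, and not by a rule on their values. Earlier results of these data were known when they were chosen. Their open regions numbered 80 of the 32011 in the list. A region belonged to a gene if its midpoint lay within 1 kb of the outermost 5' end, inside the gene span, or over 1 kb from any coding 5' end but nearest to that of the gene, the last being called distal.

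The data came from bulk ATAC-seq, in which the Tn5 transposase cuts accessible DNA, of mouse submandibular salivary gland organoids (mSGOs). The labels give 4 samples of C57BL/6 mice, all non-irradiated, with 2 of passage 1 and 2 of passage 2, and each passage has 1 sample labelled as 12 weeks of age and 1 as 3 months. The paper states that the organoids for ATAC-seq came from 4 different mice, and that all mice of the study were female. Organoids grew in Matrigel in WRY medium with EGF, FGF2, insulin, dexamethasone, Y27632, R-spondin1-conditioned medium and Wnt3a-conditioned medium. No TGF-beta or BMP ligand, Noggin or receptor inhibitor is named among the additives. The full content of the Matrigel and of the conditioned media is not given. The authors deposited 1 list for the series, so values of single samples are not known here, replicate spread and depth are unknown, and passages or ages cannot be compared. A missing region therefore means that none was listed, not that the site was closed.

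TGF-beta and activin ligands bind pairs of type II and type I receptors, which phosphorylate Smad2 and Smad3, whereas BMPs act through Smad1, Smad5 and Smad9. These SMADs join Smad4, enter the nucleus and bind DNA with other factors. Smad6 and Smad7 are induced by the pathways and hold them back, Skil (SnoN) and Tgif1 repress SMAD-driven transcription, and Id1, Id2 and Id3 are classical BMP targets that block basic helix-loop-helix factors. In glandular epithelium, TGF-beta is known to restrain growth, and BMPs take part in branching.

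A region at the 5' end was listed for 5 of the 10 genes, against 38.3% of all coding genes. These were Tgfbr1, Tgfbr2, Skil, Tgif1 and Id2. A region lay inside 6 of the 10 genes, against 39.4% of coding genes, and at least 1 distal region lay nearest to each of the 10, against 40.4% of coding genes. The median length of the 10 genes was 28.2 kb against 17.6 kb over coding genes, although Tgif1, Id1, Id2 and Id3 are shorter than that. The median stretch of sequence nearest to their 5' ends was 195 kb against 50.4 kb, with Id1 alone below, at 33.4 kb. Both lengths bear on the number of regions a gene can hold. Their 73 distal regions were unevenly spread, since Tgif1 had 24 and Tgfbr2 had 16, together 54.8%, while the other 8 genes shared 33. Within 100 kb of the 5' end the count was 49, of which Tgif1 had 13, Smad7 8, Tgfbr1 6 and Tgfbr2 5, so the high count of Tgfbr2 rests on regions farther away.

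**Figure D1:**
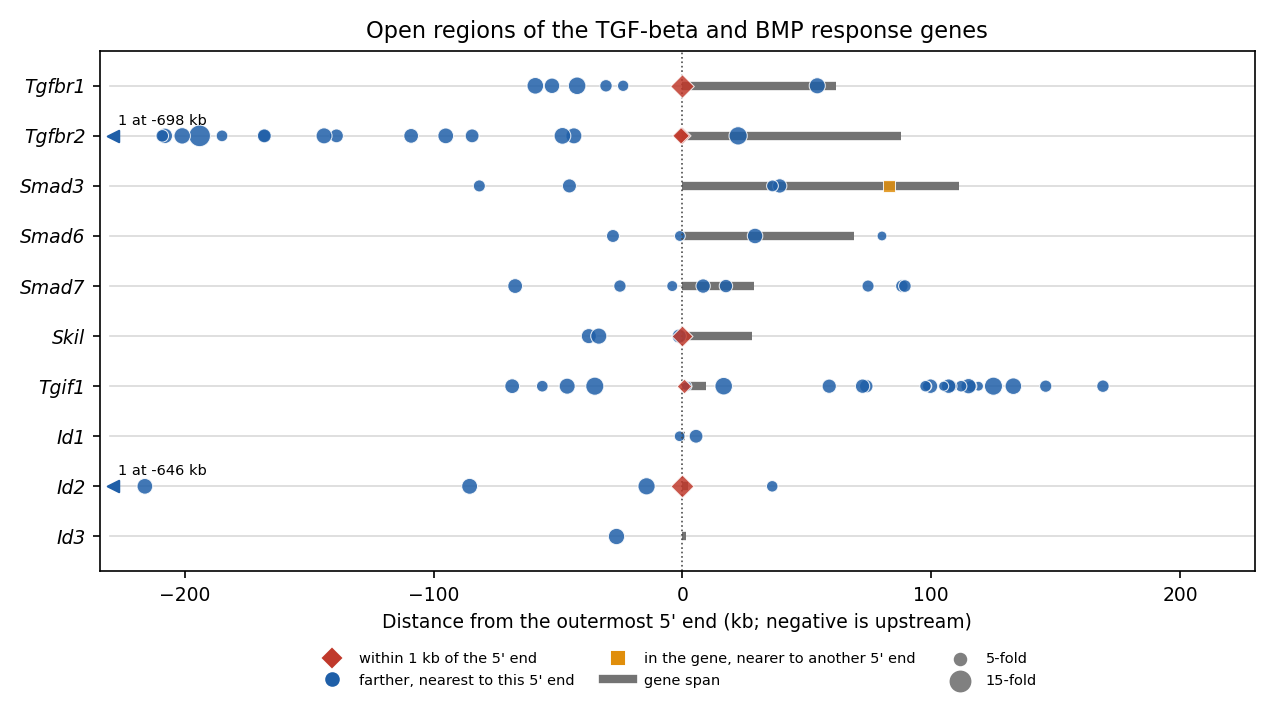
Position of each open region (x axis, kb from the outermost 5' end, negative upstream) for the 10 genes, with symbol area proportional to the fold over the local background and the gene span in grey. Diamonds within 1 kb of the 5' end occur at 5 genes, and the rows of Tgfbr2 (mostly upstream) and Tgif1 (mostly downstream) hold the most circles; 2 regions beyond the axis are marked by arrowheads.

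Tgfbr1 encodes the type I receptor kinase for TGF-beta. Its 5' end carried 1 region on chromosome 4 from 47352825 to 47353365. Its signal at the strongest of 3 summits was 10.7 times the local background, a ratio called the fold here, and it had the top IDR score of 1000, which scales the reproducibility of a peak. This fold stood at percentile 76.4 among all regions at coding 5' ends. A further RefSeq start of Tgfbr1 inside the gene had no region over its window. Of 6 distal regions, 5 lay upstream, 23.8 to 59.1 kb from the 5' end, and 3 of these fell inside Col15a1, the next coding gene in that direction. The strongest of them, from 47310695 to 47311221, had a fold of 11.8. Another region, with a fold of 9.94, lay 54.2 kb downstream inside Tgfbr1.

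Tgfbr2 encodes the type II receptor, which binds the ligand first. Its 5' end carried 2 regions on chromosome 9, from 116175126 to 116175613 and from 116175752 to 116176057, with folds of 5.76 and 5.45 and IDR scores of 861 and 639. Both were weak for regions at 5' ends, at percentiles 20.5 and 15.8. Stronger regions lay away from the 5' end. Inside the gene, 22.4 kb downstream, the region from 116152697 to 116153312 had a fold of 12.8. Upstream, 14 regions lay between 43.6 and 209 kb from the 5' end, none inside a coding gene, with a median fold of 8.74 and the top IDR score in 9. The strongest, from 116368915 to 116369403, reached a fold of 17.9, at percentile 99.4 of all distal regions and the highest among the 10 genes. The next coding 5' end in this direction is that of Rbms3, 1450 kb away, and 1 more region inside Rbms3, with a fold of 4.58, was assigned to Tgfbr2 across 698 kb.

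The RefSeq promoter windows (GRCm38.p6, 250 bases before to 50 after the start, 5' to 3' on the gene's strand) of both receptor genes are shown because a region covers all 300 bases of each. Capitals mark the GC element GGCGCC, of the kind found in BMP-responsive DNA, in Tgfbr1 (chr4:47352972-47353271, plus strand) and the SMAD box CAGAC, a short site to which SMADs bind, in Tgfbr2 (chr9:116175314-116175613, minus strand).
Tgfbr1: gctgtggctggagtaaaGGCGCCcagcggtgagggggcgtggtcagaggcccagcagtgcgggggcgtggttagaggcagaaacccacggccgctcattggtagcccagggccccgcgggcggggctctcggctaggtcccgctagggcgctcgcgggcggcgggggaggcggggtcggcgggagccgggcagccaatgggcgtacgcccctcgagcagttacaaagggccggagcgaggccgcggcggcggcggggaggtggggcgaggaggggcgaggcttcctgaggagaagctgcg
Tgfbr2: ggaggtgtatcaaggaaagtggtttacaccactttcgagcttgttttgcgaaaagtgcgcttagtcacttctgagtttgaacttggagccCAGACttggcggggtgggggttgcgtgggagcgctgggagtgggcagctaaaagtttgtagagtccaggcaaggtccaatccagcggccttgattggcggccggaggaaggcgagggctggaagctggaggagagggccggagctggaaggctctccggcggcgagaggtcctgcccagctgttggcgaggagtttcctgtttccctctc

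Both windows hold a single match. Over 21262 windows of coding genes, searched on both strands, 15.3% held the GC element and 48.4% the SMAD box, so neither match is rare. The window of Tgfbr1 had a GC content of 74.7% and that of Tgfbr2 59.0%, against a median of 56.3%. A match describes letters and is no evidence of binding.

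Smad3 transmits TGF-beta and activin signals to the nucleus. None of its regions lay at the 5' end, and the nearest was 36.2 kb away, inside the gene. The gene span of 111 kb on chromosome 9 held 3 regions, with folds of 7.87, 5.34 and 5.42, the last nearer to the 5' end of Aagab. Upstream, 2 regions lay 45.4 and 81.6 kb away, with folds of 7.58 and 5.54. Of the 5 folds of Smad3, 2 lay above the median of all distal regions, 6.87, and 3 below their lower quartile, 5.58.

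Smad6, the inhibitory SMAD best known for blocking BMP signals, is the next coding gene upstream of Smad3, with 195 kb between the genes and 3 regions in that interval. Its nearest region, from 64022884 to 64023316, had its midpoint 1.01 kb upstream of the 5' end and a fold of 4.49, just outside the distance that counts as the 5' end. The other gene just outside was Id1 at 1.12 kb, and the one just inside was Tgif1 at 0.698 kb. The strongest region of Smad6, from 63992554 to 63993119, lay 29.2 kb into the gene with a fold of 9.21, at percentile 77.4 of distal regions. The remaining distal regions, at 27.9 kb upstream and 80.2 kb downstream, had folds of 6.42 and 3.69.

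The promoter window of Smad6 (GRCm38.p6, chr9:64022010-64022309, minus strand) was chosen after its content was seen, because it holds the SMAD palindrome GTCTAGAC, in capitals, across the start. No listed region overlaps the window.
Smad6: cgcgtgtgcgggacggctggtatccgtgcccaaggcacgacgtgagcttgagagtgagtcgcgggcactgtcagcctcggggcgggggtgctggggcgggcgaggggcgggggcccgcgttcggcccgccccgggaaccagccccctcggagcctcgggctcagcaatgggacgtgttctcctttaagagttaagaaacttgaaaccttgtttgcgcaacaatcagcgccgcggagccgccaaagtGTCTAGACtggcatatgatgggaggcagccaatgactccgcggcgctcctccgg

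The palindrome occurred in 48 of 21262 coding windows, or 0.226%, and in 1 of the 12 windows that the RefSeq table gives for 7 of the 10 genes. The longer BMP response element, GGCGCC followed after 5 bases by GTCT, occurred in 0.0847% of coding windows and in none of these 12, and the AP-1 site TGANTCA in 6.99% and in none. Skil, Id1 and Smad7 have no window in the table.

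Smad7, the inhibitory SMAD that recruits ubiquitin ligases to TGF-beta receptors, lies on chromosome 18. None of its 8 regions, all distal, lay at the 5' end, the nearest being 4.08 kb upstream with a fold of 4.61. Inside the gene, the regions from 75375493 to 75375909 and from 75384505 to 75385234 lay 8.34 and 17.5 kb from the 5' end, with folds of 7.90 and 6.88 and the top IDR score. Upstream, a region 67.2 kb away from 75300021 to 75300396 had the highest fold of this gene, 8.37, and one 25.1 kb away had 5.82. The last 3, at 74.6 to 89.4 kb downstream, lay inside the neighbouring gene Ctif, with folds of 5.59, 6.01 and 6.11. Smad7 stood at percentile 88.7 by its number of distal regions among 428 genes with a similar stretch, whereas Smad6 and Smad3, with 4 each, stood at 79.8 and 74.9.

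Skil carried a region at the 5' end on chromosome 3 from 31094537 to 31095188, with 4 summits, a fold of 8.46 and the top IDR score. A second region, from 31093599 to 31093986, lay 1.27 kb upstream with a fold of 7.70. A pair of regions 33.6 and 37.6 kb upstream had folds of 9.95 and 8.71. All 4 regions of Skil thus had the top score and folds above the distal median, and none had its midpoint inside the gene.

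Tgif1, a homeobox corepressor that binds SMADs, showed the opposite arrangement. Its 3 regions inside the gene, on chromosome 17, lay next to one another and had low folds. The region at the 5' end, from 70852341 to 70853327, was 987 bp wide with 5 summits, but its fold of 4.19 stood at percentile 2.76 of regions at coding 5' ends. The regions from 70852214 to 70852287 and from 70851570 to 70851965 had folds of 2.71 and 4.01, at percentiles 0.415 and 1.95 of distal regions. They lay 516 and 34 bp from the second of 5 RefSeq starts of the gene. Both count as distal only because distance was taken from the outermost 5' end. By contrast, 3 regions outside the gene had folds of 12.5, 12.5 and 11.8. These lay 35.2 kb upstream from 70888267 to 70889203, 125 kb downstream from 70728632 to 70729366, and 16.6 kb downstream from 70836687 to 70837181.

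Of the 24 distal regions of Tgif1, 17 lay inside Dlgap1, 59.0 to 169 kb from the 5' end of Tgif1, with folds of 3.48 to 12.5. Dlgap1, which encodes a scaffold protein of neuronal synapses, is 852 kb long and had 0 regions at its own 5' end, which lies 884 kb from that of Tgif1. The other 3 upstream regions of Tgif1, at 46.3, 56.3 and 68.4 kb, had folds of 9.81, 5.21 and 8.33 and lay, like the one at 35.2 kb, inside the noncoding gene Gm26510. The 17 regions of Dlgap1 were all in the part nearer to Tgif1, and nearness does not show which gene they act on. The top IDR score was given to 12 of the 24 distal regions of Tgif1 and to 10 of the 16 of Tgfbr2. Only 11 of 21394 coding genes had 24 or more distal regions. The percentile of Tgif1 was 99.9, and that of Tgfbr2 94.6, in their sets of 428 genes of similar stretch, where the median was 2.00 for both.

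The first and second promoter windows of Tgif1 (GRCm38.p6, chr17:70853483-70853782 and chr17:70851685-70851984, minus strand) are shown because the region at the 5' end stops short of the first, while a region covers bases 20 to 300 of the second. Capitals mark the SMAD box on either strand, CAGAC or GTCTG.
Tgif1 first start: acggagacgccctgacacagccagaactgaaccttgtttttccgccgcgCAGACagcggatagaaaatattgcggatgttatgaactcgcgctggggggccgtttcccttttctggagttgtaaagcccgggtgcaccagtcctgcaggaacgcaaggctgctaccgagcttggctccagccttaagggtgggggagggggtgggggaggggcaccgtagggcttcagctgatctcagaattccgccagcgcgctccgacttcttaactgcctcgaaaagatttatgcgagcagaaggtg
Tgif1 second start: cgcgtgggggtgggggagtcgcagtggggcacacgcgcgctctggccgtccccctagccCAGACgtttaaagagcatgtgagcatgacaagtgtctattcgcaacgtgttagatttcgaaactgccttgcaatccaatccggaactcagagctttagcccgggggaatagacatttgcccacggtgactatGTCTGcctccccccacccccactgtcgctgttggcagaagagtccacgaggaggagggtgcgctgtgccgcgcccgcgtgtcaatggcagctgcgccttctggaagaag

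**Figure D2:**
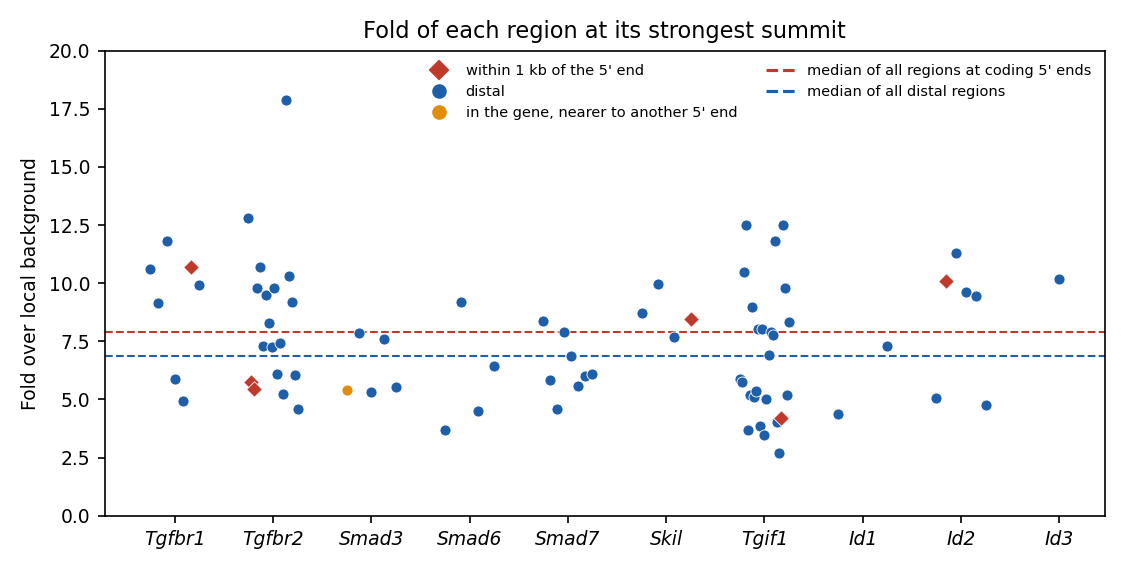
Fold over the local background (y axis) of each region at its strongest summit, by gene, with diamonds within 1 kb of the 5' end and dashed lines at the medians of all regions at coding 5' ends, 7.90, and of all distal regions, 6.87. Diamonds lie above the upper line at Tgfbr1, Skil and Id2 and below both lines at Tgfbr2 and Tgif1, and the highest point, 17.9, is a distal region of Tgfbr2.

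The 3 Id genes differed from one another. Id2 had a region at the 5' end on chromosome 12, from 25095997 to 25096347, with 1 summit, a fold of 10.1 and the top IDR score, at percentile 71.3 of regions at coding 5' ends. Upstream, regions 14.4, 85.5 and 216 kb away had folds of 11.3, 9.64 and 9.44. Of the remaining 2, one lay 36.1 kb downstream inside Kidins220 and one 646 kb upstream, with folds of 5.07 and 4.74. The 5 distal regions gave Id2 a percentile of 69.3 within its set of similar stretch, which for Id2 reached 720 kb.

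Id1 and Id3 had none at the 5' end. The nearest region to Id1, on chromosome 2 from 152734946 to 152735316, lay 1.12 kb upstream with a fold of 4.37, at percentile 4.34 of distal regions. A second one, from 152741405 to 152742086, lay 5.49 kb downstream with a fold of 7.29. For Id3, the single assigned region was on chromosome 4 from 136117086 to 136117533. It lay 26.5 kb upstream and had a fold of 10.2 and the top IDR score. Within 100 kb of the 5' end, without regard to the nearest gene, Id1 had 14 regions, Id3 had 8 and Id2 had 4, against a median of 4 over coding genes. Id1 thus had more regions around it than Id2 but fewer assigned to it, as the coding 5' ends next to Id1 lie 49.1 and 17.7 kb away. By distal regions among genes with a similar stretch, Id1 stood at percentile 93.1 and Id3 at 68.7.

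The promoter window of Id2 (GRCm38.p6, chr12:25096043-25096342, minus strand), covered in full by the region at its 5' end, is shown with the GC element in capitals.
Id2: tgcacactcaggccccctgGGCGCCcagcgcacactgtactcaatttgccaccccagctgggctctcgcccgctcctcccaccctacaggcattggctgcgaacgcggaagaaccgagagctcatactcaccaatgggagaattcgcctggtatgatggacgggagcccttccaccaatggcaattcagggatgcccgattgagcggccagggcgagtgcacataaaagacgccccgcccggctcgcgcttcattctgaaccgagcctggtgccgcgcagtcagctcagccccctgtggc

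**Figure D3:**
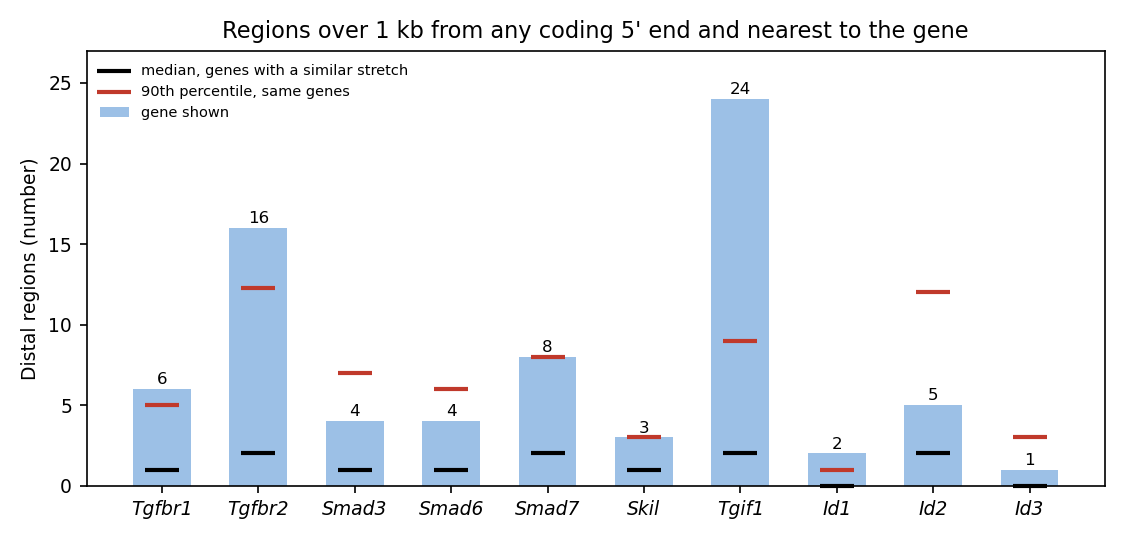
Number of distal regions (y axis) for each of the 10 genes as bars, with black and red ticks at the median and the 90th percentile of 428 genes with a similar stretch nearest to the 5' end. Bars pass the red tick at Tgfbr1, Tgfbr2, Tgif1 and Id1, reach it at Smad7 and Skil, and stay below it at Smad3, Smad6, Id2 and Id3.

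Over the 10 genes, the 6 regions at 5' ends had a median fold of 7.11, against 7.90 for 8174 regions at coding 5' ends. The 73 distal regions had a median fold of 7.42 against 6.87 for 23760, with quartiles of 5.34 and 9.48 against 5.58 and 8.92, so the ranges overlapped widely. The top IDR score was given to 41 of the 73 (56.2%), against 40.9% of all distal regions. Of the 73, 40 lay upstream of the 5' end (54.8% against 43.2%) and 9 inside the gene they were assigned to (12.3% against 35.8%). The median distance to the 5' end was 72.4 kb against 36.3 kb. Tgfbr2 and Tgif1 weigh heavily in these figures, regions of 1 gene are not independent, and no test was made because the genes were chosen with earlier results known.

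The assignment of distal regions rests on counting coding genes alone. With 5' ends of noncoding genes counted as well, the 73 regions became 12, and those of Tgfbr2 and Tgif1 fell from 16 to 0 and from 24 to 3. With regions of the top IDR score alone, a region at the 5' end was left at 3 of the 10 genes, namely Tgfbr1, Skil and Id2.

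The wider pathway was described with 44 further genes in 6 roles, of which 19 had a region at the outermost 5' end (43.2%), close to the 38.3% of all coding genes. With any RefSeq start counted, 25 of the 44 had one, but the counts by role and the share over all coding genes were not computed in that way. Within 2 kb of the outermost 5' end, 24 of the 44 had one. The roles differed in their counts at the distance of 1 kb from the outermost 5' end. Of 9 ligand genes, Bmp7 alone had a region there, with a fold of 6.29, yet each had distal regions, with a median of 7 and the most, 21, at Inhba, which encodes an activin subunit. Over all coding genes, 40.4% had a distal region and the median was 0, but the stretch nearest to a 5' end bears on these counts. Among genes with a similar stretch, the ligand genes stood at percentiles from 69.5 at Tgfb3 to 99.4 at Tgfb2. Of 4 genes of ligand storage and release, none had one, and distal regions were most numerous at Thbs1, with 17, whose product activates latent TGF-beta. The nearest region lay 1.31 kb from the 5' end of Thbs1 and 1.92 kb from that of Itgav. At Itgb6 and Ltbp1 it lay 19.1 and 25.6 kb away. Among 10 receptors and coreceptors, 5 had a region at the 5' end, namely Acvr1, Acvr2a, Acvr2b, Bmpr2 and Tgfbr3, with folds of 6.56, 7.56, 5.99, 6.86 and 5.45, and Acvr2a had the most distal regions, 11.

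Among the other 5 SMAD genes, a 5' region was listed for 4, and Smad9 had none. Smad2 reached a fold of 8.21 and had 9 distal regions, and Smad1, Smad4 and Smad5 had folds of 7.94, 6.30 and 4.54. Among 10 antagonists and corepressors, 5 had one, with folds of 8.05 at Ski, 5.00 at Smurf1, 6.52 at Smurf2, 11.1 at Bambi, a decoy receptor, and 6.14 at Pmepa1, and Fst had the most distal regions, 7. Among 6 other targets, Cdkn1a and Tgfbi had none at the 5' end, and Cdkn2b, a cell cycle inhibitor induced by TGF-beta, had 13 distal regions and a 5' region with a fold of 9.01. By distal regions among genes with a similar stretch, the percentiles were 98.7 for Thbs1, 88.2 for Acvr2a, 89.1 for Smad2, 90.5 for Fst and 98.9 for Cdkn2b. These genes were named for having the most distal regions in their role, so high values follow in part from that choice. The lowest percentiles in the same roles were 89.4 at Ltbp1, 31.3 at Eng, 32.1 at Smad9, 36.3 at Tgif2 and 74.3 at Id4.

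**Figure D4:**
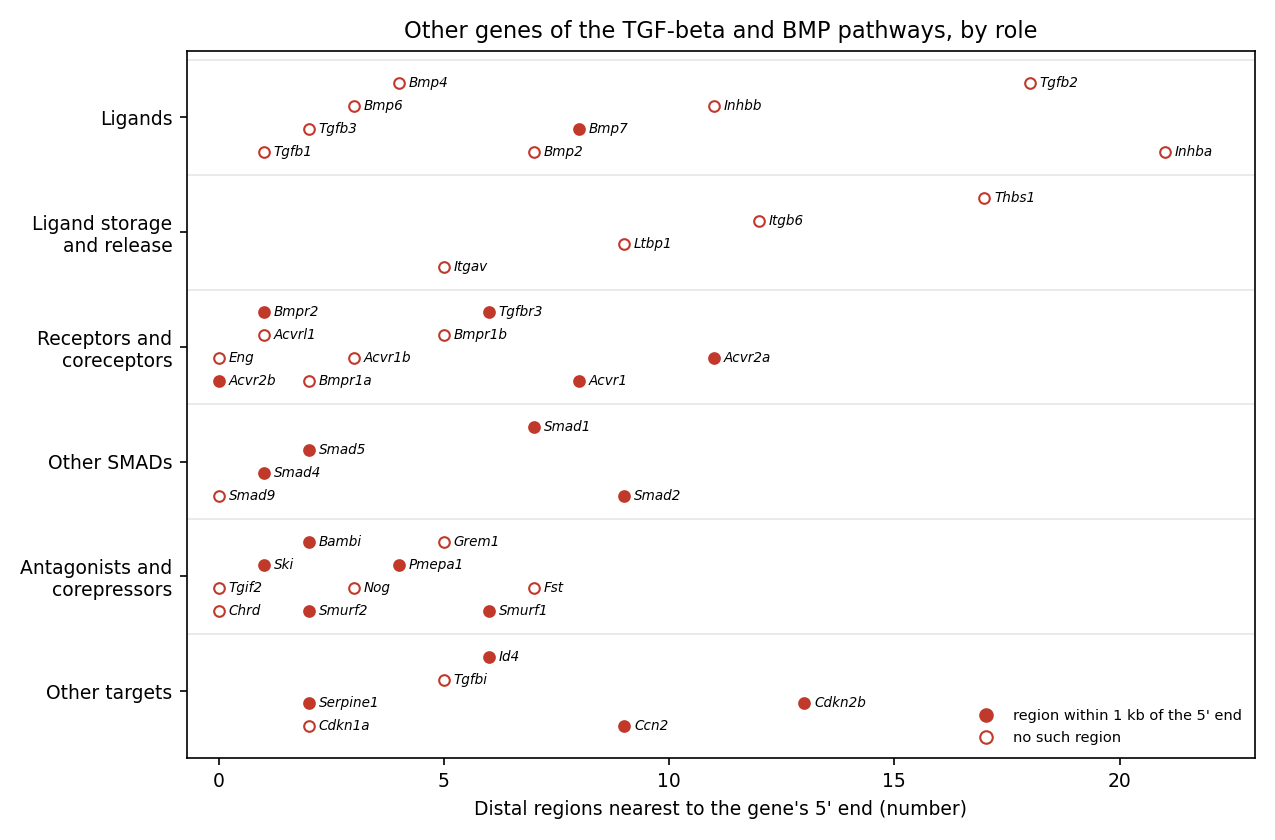
Number of distal regions (x axis) nearest to each of 44 other pathway genes, in rows by role and staggered within a row for legibility, with filled circles for genes that have a region within 1 kb of the 5' end. Filled circles number 1 of 9 among ligands, 0 of 4 among storage and release genes and 4 of 5 among the other SMAD genes, and the farthest points to the right are Inhba, 21, and Tgfb2, 18.

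Markers of cell types were read in the same way, since a bulk assay does not separate the cells of the organoids. Of 7 epithelial markers, Epcam, Cdh1, Krt5, Krt14 and Krt8 had a region at the 5' end, and Krt18 and Trp63 did not. The highest folds there were 6.64 at Epcam, 7.77 at Cdh1, 2.95 at Krt5, 5.43 at Krt14 and 5.96 at Krt8. All were below the median of 7.90 over regions at coding 5' ends. Of 6 immune markers, Cd68 had one, with a fold of 4.58, and of 6 endothelial and 6 fibroblast markers 0 had one, against 38.3% of coding genes. A region lay inside 3 epithelial, 0 immune, 2 endothelial and 1 fibroblast markers, against 39.4% of coding genes. Trp63 and Cdh1 each held 7 such regions. Distal regions gave another order, since 6 of 7 epithelial, 6 of 6 endothelial, 4 of 6 fibroblast and 2 of 6 immune markers had at least 1, with medians of 2.00, 2.50, 1.00 and 0 and the most at Trp63, 10, and Cdh5, 7. The part of these cell types in the regions of the 10 genes was not tested.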

How the data were processed

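ATAC-seq libraries of 4 mSGO samples were sequenced as paired-end reads. The authors used the ENCODE ATAC-seq pipeline for alignment and peak calling and made a consensus file from all organoid samples; whether the deposited list is that file is not known, since the peak number in their methods differs from both its lines and its distinct regions, and the list names no samples. Its 69545 lines give, per summit, an IDR score, a fold (ratio) over the local background and a q-value as −log10, deposited by the authors. The p-values were not used. The pipeline version and filters are not given in the sources used here.

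Lines with the same interval were joined into 1 region with the values of the summit with the lowest q-value. The submitters' processing notes name GRCm39 and HOMER, but 38.3% of 5' ends in the RefSeq gene table of GRCm38.p6 had a region within 1 kb, against 3.77% after a shift of 50 kb and 5.04% of GRCm39 5' ends, so the list was read as GRCm38. Strand came from the RefSeq promoter table of GRCm38.p6 for 17491 coding genes and by gene name from GENCODE release 39 for 3945, and 447 coding genes without strand were left out. On each chromosome, regions past the first or last coding 5' end were not counted as distal. Genes with a similar stretch are those in the same of 50 bins by the length of sequence that lies closest to their own 5' end. Promoter sequences come from RefSeq, for 7 of the 10 genes; other regions are shown without sequence, because no genome of their build was used here.

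The members, lists and rules were chosen with earlier results of these data known, so no test was run and counts stand beside those of all coding genes. Named from the 44 pathway genes were, per role, the gene with most distal regions and the smaller group with or without a 5' region; from each of the 10 genes, chiefly the strongest regions. Functions were tested on made-up positions. Python 3.11.15, numpy 2.4.6, pandas 2.3.3 and matplotlib 3.10.9 were used.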

Additional observations from a re-analysis of the deposited data

How the results depend on the processing

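No paired analysis was possible because the list names no samples, and for the same reason none could be left out. Of the 40 values recomputed for the summary counts and the median fold, 25 stayed within 1.5 times the reported ones. In the 16006 regions with the lowest q-values, the genes with a 5' region fell from 5 to 3, regions in the genes from 11 to 6, distal regions from 73 to 42, distinct regions from 80 to 45 and pathway genes with a 5' region from 19 to 11. With the IDR score of 1000 alone, these were 3, 6, 41, 44 and 9. Counting every line gave 25 regions in the genes, 163 distal and 182 in all. Distal regions numbered 12 with genes of any type and 40 with either end of a gene. All these sets are smaller or larger by construction. For single genes, 54 of 90 recomputed counts of distal regions stayed within 1.5 times. A distance of 2 kb placed a region at the 5' end of 7 genes, and 500 bp of 4. Counting any RefSeq start and taking strand from GENCODE alone were chosen after seeing the data and left 5 genes with a 5' region. For these genes, the count with any RefSeq start could not rise, so its unchanged value does not show stability. Among the genes without a 5' region, Smad7 and Id1 had 0 such starts. Smad3, Smad6 and Id3 had 1 each. That start was the 5' end already used for Smad3 and Id3, and for Smad6 it lay 1041 bp from the nearest region. Counting any RefSeq start raised the pathway genes with a 5' region from 19 to 25. Depth is unknown, so a region that is not listed may have been missed.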
